A study of Mus musculus with 36 samples.

Results

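The 44 genes described here encode the proteins of the complement cascade, of blood coagulation and of fibrinolysis. They were taken by gene symbol from a list that was chosen with earlier results of these data known. All 44 were present among the 56748 genes of the deposited expression table, each under a single identifier. Expression was measured by RNA sequencing in visceral white adipose tissue (visWAT, here the epididymal fat pad) and in the liver of the same 18 male mice, giving 36 libraries. MlklAdi-KO mice carried loxP-flanked alleles of Mlkl, the executioner of necroptotic cell death, together with a Cre transgene (Adipo-Cre) active in mature adipocytes, so that other cells of the fat pad and the liver were not targeted. WT mice were littermates with the same loxP-flanked alleles but without Cre, so that both genotypes carried the modified Mlkl alleles. Feeding with standard chow (NCD) or a lipid-rich, high-fat diet (HFD) began at 16 weeks of age and lasted 16 weeks. Each tissue had 4 WT and 4 MlklAdi-KO mice on NCD, and 5 WT and 5 MlklAdi-KO mice on HFD. Values below are FPKM (fragments normalised to gene length and library size, as scaled by the authors) and, within a group, follow the mice in the order 165, 180, 182 and 183 (WT NCD), 166, 179, 197 and 199 (MlklAdi-KO NCD), 154, 155, 161, 162 and 164 (WT HFD), and 151, 152, 153, 156 and 157 (MlklAdi-KO HFD).

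Complement is a chain of plasma proteases and opsonins that can be started by C1q bound to antibody or dying cells (classical pathway), by mannose-binding lectins on microbial sugars (lectin pathway) or by spontaneous activation of C3 (alternative pathway), and that ends in the pore formed by C6, C8, C9 and their partners. Coagulation runs from tissue factor (F3) and factor VII (F7) through factor X (F10) to thrombin (F2), which turns fibrinogen into fibrin, and plasmin made from plasminogen (Plg) dissolves the clot. Hepatocytes supply most of these proteins to the blood, whereas macrophages and stromal cells of a tissue are known local sources of C1q, C3, properdin and the plasminogen activators.

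Promoter sequences are shown for 7 members that stand for the opposite expression patterns in the data: the 3 fibrinogen chains (Fga, Fgb, Fgg), which had the largest log2 differences between liver and visWAT, the neighbouring pair F7 and F10, which were detected in visWAT mainly on HFD, and 2 chains of C1q (C1qb, C1qc), which were higher in visWAT. Each run holds the 250 bases before the RefSeq transcription start on the gene's own strand, taken from RefSeq's GRCm38.p6 table and located in GRCm39 by exact match. The windows are chr3:82933210-82933459 (+) for Fga, chr3:82957171-82957420 (−) for Fgb, chr3:82914781-82915030 (+) for Fgg, chr8:13075784-13076033 (+) for F7, chr8:13087058-13087307 (+) for F10, chr4:136613512-136613761 (−) for C1qb and chr4:136620226-136620475 (−) for C1qc. The RefSeq start of Fga and of C1qc lies inside the gene as deposited. Capitals mark, on either strand, CTGGGA (core of the interleukin-6 response element of acute-phase genes), GTTAAT (core of the site of the liver factor HNF1) and GAGGAA (core of the site of the myeloid factor PU.1). No match overlapped another in these windows.
Fga: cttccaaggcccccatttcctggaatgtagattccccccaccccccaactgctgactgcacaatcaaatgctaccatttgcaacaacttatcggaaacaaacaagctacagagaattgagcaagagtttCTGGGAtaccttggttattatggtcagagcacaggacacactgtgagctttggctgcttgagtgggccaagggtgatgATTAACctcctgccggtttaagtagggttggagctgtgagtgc
Fgb: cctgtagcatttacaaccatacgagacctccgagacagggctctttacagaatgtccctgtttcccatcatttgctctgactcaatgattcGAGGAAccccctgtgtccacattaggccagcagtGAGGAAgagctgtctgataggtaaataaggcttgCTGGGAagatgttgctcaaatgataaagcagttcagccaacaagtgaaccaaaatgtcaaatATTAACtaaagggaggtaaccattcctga
Fgg: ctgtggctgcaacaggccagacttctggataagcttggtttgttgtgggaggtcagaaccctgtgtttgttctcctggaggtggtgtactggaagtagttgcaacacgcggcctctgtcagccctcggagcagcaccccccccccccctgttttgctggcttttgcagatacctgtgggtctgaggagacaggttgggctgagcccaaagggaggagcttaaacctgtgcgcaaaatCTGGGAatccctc
F7: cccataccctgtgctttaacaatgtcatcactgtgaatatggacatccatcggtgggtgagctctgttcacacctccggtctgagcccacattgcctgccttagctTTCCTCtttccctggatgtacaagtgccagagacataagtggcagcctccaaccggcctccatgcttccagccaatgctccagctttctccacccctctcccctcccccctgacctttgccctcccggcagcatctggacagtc
F10: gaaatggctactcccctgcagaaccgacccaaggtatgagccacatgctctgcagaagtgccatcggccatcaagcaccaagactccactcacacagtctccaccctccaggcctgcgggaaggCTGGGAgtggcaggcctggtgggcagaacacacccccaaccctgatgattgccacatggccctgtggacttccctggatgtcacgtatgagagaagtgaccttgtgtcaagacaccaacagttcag
C1qb: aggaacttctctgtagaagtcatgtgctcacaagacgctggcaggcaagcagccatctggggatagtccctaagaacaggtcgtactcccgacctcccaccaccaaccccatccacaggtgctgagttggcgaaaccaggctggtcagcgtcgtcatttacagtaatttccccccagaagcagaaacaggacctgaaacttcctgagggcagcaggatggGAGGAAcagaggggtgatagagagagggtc
C1qc: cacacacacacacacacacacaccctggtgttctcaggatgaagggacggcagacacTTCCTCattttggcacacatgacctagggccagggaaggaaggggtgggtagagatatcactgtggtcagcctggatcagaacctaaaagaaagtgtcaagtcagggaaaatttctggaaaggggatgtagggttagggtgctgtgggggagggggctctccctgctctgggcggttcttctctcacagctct
CTGGGA was found once each in the windows of Fga, Fgb, Fgg and F10, GTTAAT once each in those of Fga and Fgb, and GAGGAA at 2 positions in that of Fgb and once each in those of F7, C1qb and C1qc. Of the 34 members with a RefSeq promoter window, 12 held CTGGGA, 7 held GTTAAT and 6 held GAGGAA, against 27.5%, 5.8% and 22.4% of the 20430 promoters in the table. Such a match is a description of letters and not of a bound site. The 3 fibrinogen genes lie side by side on chromosome 3, with gaps of 11026 bases between Fgg and Fga and 6513 bases between Fga and Fgb. The C1q genes form a cluster on chromosome 4, with gaps of 3616 bases between C1qb and C1qc and 2851 bases between C1qc and C1qa. F7 and F10 are 1498 bases apart on chromosome 8.

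The labels were first checked against marker genes. Summed hepatocyte markers (10 genes) reached 53890 to 82900 FPKM in liver, and summed mature adipocyte markers (8 genes) 4834 to 9326 FPKM in visWAT against 44.3 to 156 FPKM in liver. Mlkl in visWAT, the gene that was targeted, measured 5.11, 4.63, 2.29 and 3.91 FPKM in WT and 2.20, 1.96, 2.49 and 2.10 FPKM in MlklAdi-KO mice on NCD, and 4.58, 5.19, 4.88, 5.50 and 6.28 against 2.39, 2.68, 2.72, 2.55 and 2.32 FPKM on HFD. The groups were apart on HFD, with a log2 fold change of −0.83 (SE 0.07, adjusted p = 0.00162). On NCD, the library labelled WT NCD, mouse 182, lay among the knockouts, and the log2 fold change was −0.61 (SE 0.18, adjusted p = 0.916). In the visWAT of WT NCD mouse 183, seminal vesicle markers (5 genes) summed to 248000 FPKM. In the visWAT of MlklAdi-KO HFD mouse 156, hepatocyte markers summed to 919.6 FPKM, or 1.33% of the mouse's own liver, against 0.00289% to 0.251% in the other 17 mice. Depth lay between 20875463 and 30322171 reads assigned to genes.

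The first comparison set production by the liver against local expression in visWAT of the same mice. With limma, an adjusted p under 0.05 was reached by 43 of 44 members in WT mice on NCD (31 higher in liver, 12 higher in visWAT), 44 in WT mice on HFD (31 and 13), 44 in MlklAdi-KO mice on NCD (31 and 13) and 43 in MlklAdi-KO mice on HFD (31 and 12). The background was high, since 65.5%, 84.6%, 77.9% and 80.3% of all tested genes passed in these 4 groups. Higher in liver were 34.0%, 43.0%, 40.6% and 40.9% of all genes, and higher in visWAT 31.5%, 41.6%, 37.4% and 39.4%. The median member was higher in liver by 5.43 on the log2 scale in WT mice on NCD and 5.17 in WT mice on HFD, against medians of 0.0332 and 0.0117 over all genes. Differences are on the scale of log2(FPKM + 1), which understates those of genes near 0. Only genes with a mean of at least 0.5 FPKM over the compared libraries were tested. A member near 0 in visWAT, such as Fga, passed this filter only through liver and could be called only as higher there. Likewise, a member near 0 in liver, such as F13a1, could be called only as higher in visWAT. The split by direction is thus partly fixed by the filter. Fat and liver RNA were extracted with different reagents, and this cannot be told apart from the tissue. Rescaling to TPM, which sums to the same total in every library, moved the median of all genes by −0.557 to −0.965 on the log2 scale, so members with small differences depended on the scale, as given below.

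**Figure D1:**
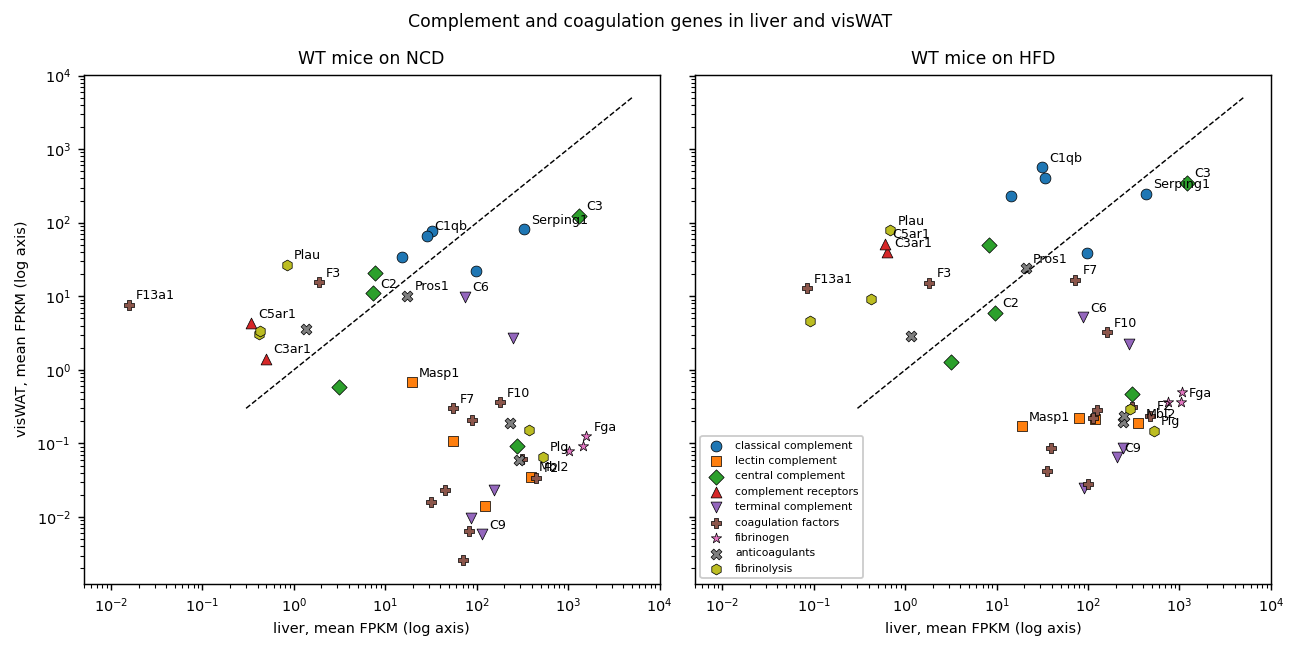
Mean FPKM of each of the 44 members in liver (x axis) and visWAT (y axis), both on log scales, in WT mice on NCD (left) and HFD (right), with colours for the roles of the genes and a dashed line where both tissues are equal. Most members lie far below the line, and 13 lie above it by their median in each diet. F7 moves up from a median of 0.624% to 22.8% of the level in the mouse's own liver. On the TPM scale these F7 medians are 0.980% and 48.7%.

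Read as a percentage of the level in the mouse's own liver, the members fell into 3 sets in WT mice on NCD. The visWAT level had a median under 1% of liver for 23 members, namely Mbl1, Mbl2, Masp2, Cfi, C8a, C8b, C9, F2, F5, F7, F9, F10, F11, F12, F13b, Klkb1, Fga, Fgb, Fgg, Serpinc1, Proc, Plg and Serpinf2. It lay between 1% and 100% for 8 members (C1ra, Serping1, Masp1, C3, Cfb, C6, C8g and Pros1) and above 100% for 13 members (C1qa, C1qb, C1qc, C2, Cfp, C3ar1, C5ar1, F3, F13a1, Tfpi, Plat, Plau and Plaur). On HFD, F7 and F10 left the first set and C8g (0.768%) and Masp1 (0.910%) entered it, while C2 and Pros1 changed sides around 100%. MlklAdi-KO mice gave the same sets, except that C8g (0.953%) was under 1% already on NCD, which made 24 members. These percentages are on the authors' FPKM scale, which lowers visWAT against liver. With TPM, 14 or 15 members lay above 100% in each group.

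The 3 chains of fibrinogen, the substrate of thrombin, had the largest differences on the log2(FPKM + 1) scale, which grows with the level in liver where visWAT is near 0. As a percentage of the own liver, F9 (median 0%), C9 (0.0044%) and F2 (0.00503%) were lower still than Fgg (0.00566%). Liver Fga measured 1681, 1699, 1382 and 1576 FPKM in WT mice on NCD, against 0.0560, 0.171, 0.0981 and 0.174 FPKM in their visWAT. No liver library came near any visWAT library, and the log2 difference was 10.46 (SE 0.10, adjusted p = 2.44e-11), with 10.36 for Fgg and 9.90 for Fgb. Plasminogen (Plg, 8.93), prothrombin (F2, 8.77) and the lectin Mbl2 (8.57) followed. Antithrombin, the main inhibitor of thrombin (Serpinc1), measured 279 to 304 FPKM in liver and 0.0296 to 0.0879 FPKM in visWAT of the same group. Among the terminal components, C8a, C8b and C9 were liver-restricted in this way, with log2 differences of 7.18, 6.38 and 6.84.

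Fibrinogen reads in visWAT stood apart in a few mice rather than in a group. Fga in visWAT measured 0, 0, 0, 13.1 and 0.103 FPKM in MlklAdi-KO mice on HFD, 0.110, 0, 0.148, 0 and 1.57 FPKM in WT mice on HFD and 0, 0.0541, 0.400 and 1.35 FPKM in MlklAdi-KO mice on NCD. The high values belonged to mice 156, 164 and 199, while in 6 of the other mice Fga was listed at 0. The same 3 mice had the highest hepatocyte marker sums of their groups, at 919.6, 136.8 and 90.8 FPKM, and in mouse 156 fibrinogen was 1.05% and the hepatocyte markers 1.33% of the own liver. In mouse 156, 19 of the 44 members were at least 5 times the highest other mouse of the group, all of them liver-restricted members. Summed hemoglobin and red cell markers were also highest in mouse 156, at 3908 FPKM. The part of these cells in the visWAT values was not tested.

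**Figure D2:**
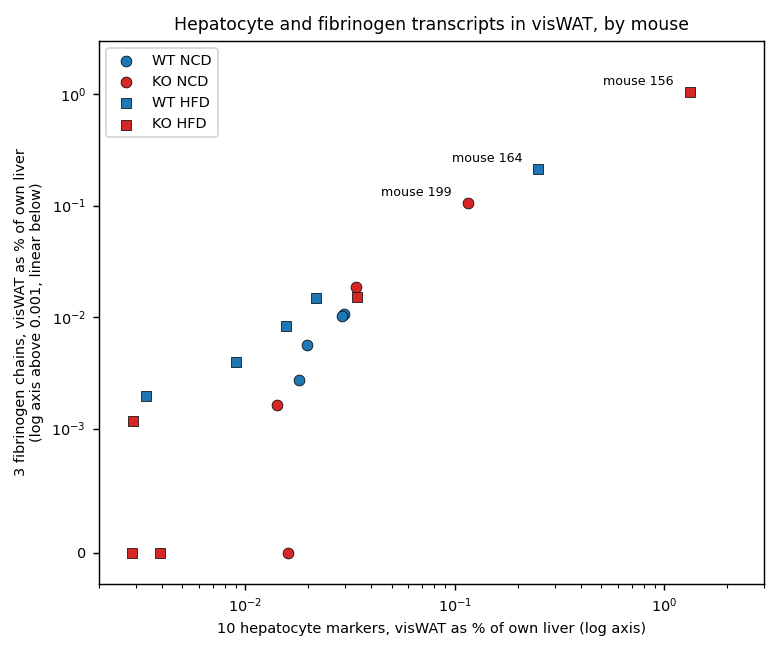
Summed Fga, Fgb and Fgg in visWAT (y axis, log above 0.001 and linear below) against 10 summed hepatocyte markers in visWAT (x axis, log), both as a percentage of the mouse's own liver, 1 point per mouse, with colours for genotype and shapes for diet. Mouse 156 (MlklAdi-KO HFD) lies at 1.33% and 1.05%, and the 17 other mice lie at or below 0.251% and 0.211%.

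Of the 13 members higher in visWAT, the C1q chains and the receptors of C3a and C5a (C3ar1, C5ar1), which are typical of macrophages, differed more between the tissues on HFD than on NCD. C1qb measured 26.2, 20.2, 43.6 and 23.1 FPKM in the liver of WT mice on NCD and 67.9, 62.5, 62.5 and 74.3 FPKM in their visWAT, against 32.6, 33.9, 27.3, 27.5 and 36.7 and 444, 668, 685, 476 and 547 FPKM on HFD. The tissues did not overlap on either diet, and the log2 difference (liver minus visWAT) was −1.27 (SE 0.22, adjusted p = 0.000969) on NCD and −4.10 (SE 0.13, adjusted p = 7.59e-11) on HFD. In MlklAdi-KO mice these differences were −1.74 and −3.57. C3ar1 went from −0.73 on NCD to −4.62 on HFD in WT mice, and C5ar1 from −2.0 to −5.04. Urokinase (Plau, −3.91 in WT mice on NCD), the transglutaminase chain of factor XIII (F13a1, −3.09) and tissue factor, the starter of coagulation (F3, −2.52), were also higher in visWAT in all 4 groups, as were Plaur, Plat, Cfp and Tfpi.

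Between these extremes stood members expressed at substantial levels in both tissues. C3, the central component of complement, was higher in liver, with 1115, 1227, 1709.6 and 1221 FPKM in liver and 158, 106, 131 and 104 FPKM in visWAT of WT mice on NCD. Its visWAT level was a median of 8.59% of the own liver on NCD and 29.5% on HFD in WT mice, and 13.8% and 17.1% in MlklAdi-KO mice. Serping1, the C1 inhibitor, had medians of 24.6% and 58.4% in WT mice and 29.9% and 47.8% in MlklAdi-KO mice. C6 went the other way, from 13.4% to 5.25% in WT mice and from 25.3% to 5.47% in MlklAdi-KO mice. With TPM, the WT medians on NCD and HFD were 14.5% and 60.3% for C3 and 46.85% and 125.7% for Serping1. For C6 they were 23.95% and 11.79%.

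Protein S (Pros1), a cofactor of protein C, and C2, the protease of the classical C3 convertase, were near equality between the tissues. Pros1 measured 17.4, 15.3, 19.0 and 17.7 FPKM in liver and 14.2, 10.8, 7.77 and 7.97 FPKM in visWAT of WT mice on NCD, and 20.8, 19.4, 22.0, 20.8 and 20.8 against 24.7, 24.2, 25.1, 22.2 and 24.2 FPKM on HFD. Liver was higher on NCD (log2 difference 0.75, SE 0.18, adjusted p = 0.00579) and visWAT on HFD (log2 difference −0.20, SE 0.05, adjusted p = 0.00140), and the tissues did not differ by the test in MlklAdi-KO mice on HFD (0.00392, adjusted p = 0.970). C2 showed −0.40 (adjusted p = 0.285) in WT mice on NCD (−0.71, adjusted p = 0.0109, without the visWAT of mouse 182) and 0.63 (adjusted p = 0.000141) on HFD. The Pros1 call in WT mice on NCD was lost on the TPM scale (0.15, adjusted p = 0.753) and without mice 182 and 183 (0.37, adjusted p = 0.0837). On the TPM scale the direction turned for Pros1 in MlklAdi-KO mice on NCD (from 0.21 to −0.81) and for C2 (−0.37) and Serping1 (−0.29) in WT mice on HFD, so the order of the tissues for these 3 genes rests on the scaling. Reads of Cfb and C2 are uncertain, because 65.7% of the exonic bases of Cfb and 38.4% of those of C2 are shared with the readthrough gene Gm20547. Gm20547 had a mean of 0 FPKM over all libraries. Cfb also shares 49.8% of its exonic bases with Nelfe on the opposite strand, which had a mean of 15.4 FPKM. Reads are uncertain too for Masp2 (60.3% shared with Tardbp on the opposite strand), Klkb1 (43.2% with Gm45753) and Serpinc1 (34.4% with Zbtb37), and for C1ra, which has the near-identical copy C1rb.

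The second comparison asked how HFD changed the local expression in visWAT. In WT mice 17 of the 22 members that could be tested rose and none fell, against a background of 37.8% of all tested genes called, 21.9% higher and 15.8% lower. In MlklAdi-KO mice 17 of 33 tested members were called, 14 higher and 3 lower, with a background of 43.7%, of which 23.3% higher and 20.3% lower. Over the 22 members tested in both genotypes, the median change was 1.23 in WT and 0.64 in MlklAdi-KO mice on the log2 scale, beside −0.01 and 0.01 for all genes. Members with a mean under 0.5 FPKM over the compared mice were not tested. In both genotypes, F7 and F10 had means under 0.5 FPKM on NCD and passed this filter only through their HFD values. A member this low on NCD could be tested only if it was higher on HFD. F7 and F10 could therefore be called only as rises. The 11 members tested in MlklAdi-KO but not in WT mice (Mbl2, Cfi, F2, F12, Fga, Fgb, Fgg, Serpinc1, Proc, Plg and Serpinf2) were among the 19 raised in mouse 156, and none of them was called.

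The C1q chains and the anaphylatoxin receptors rose together. C1qb went from 67.9, 62.5, 62.5 and 74.3 FPKM on NCD to 444, 668, 685, 476 and 547 FPKM on HFD in WT mice, with no overlap, a log2 fold change of 3.04 (SE 0.15, adjusted p = 8.75e-07). In MlklAdi-KO mice it went from 67.3, 78.9, 109 and 93.2 to 358, 480.0, 577, 218 and 212 FPKM, again without overlap but with mice 156 and 157 well below the other 3, for 1.98 (SE 0.31, adjusted p = 0.00141). C1qc (2.71 in WT, 1.71 in MlklAdi-KO) and C1qa (2.35 and 1.47) rose in both genotypes. The C3a receptor gene C3ar1 had the largest change of any member in WT mice, from 1.60, 1.21, 1.64 and 1.25 to 27.9, 46.5, 45.8, 35.7 and 43.3 FPKM (log2 difference 4.05, SE 0.15, adjusted p = 2.48e-07). In MlklAdi-KO mice C3ar1 measured 1.66, 1.94, 3.06 and 1.89 FPKM on NCD and 19.6, 36.5, 42.3, 8.69 and 6.93 FPKM on HFD (log2 difference 2.63, SE 0.50, adjusted p = 0.00330). C5ar1, the receptor of C5a, rose by 3.32 in WT and 1.83 in MlklAdi-KO mice.

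The summed level of 12 macrophage markers, all of them detected at 1 FPKM or more on HFD, moved with these genes. It was 205 to 307 FPKM in WT mice on NCD, 262 to 446 in MlklAdi-KO mice on NCD, 1804 to 2616 in WT mice on HFD and 679 to 2366 in MlklAdi-KO mice on HFD, with the lowest HFD values in mice 157 (679 FPKM) and 156 (751 FPKM). As a percentage of this sum, C1qb was 22.1% to 30.4% on NCD and 24.6% to 27.9% on HFD in WT mice, and C1qc 11.1% to 15.6% and 9.84% to 11.4%, so their ranges overlapped. C1qa was 26.4% to 36% on NCD and 17.3% to 20.2% on HFD in WT mice, without overlap. C5ar1 was 1.16% to 2.15% and 2.21% to 2.49%, close but also without overlap. C3ar1 was 0.442% to 0.677% on NCD and 1.55% to 2.02% on HFD, and C3 36.8% to 54.2% and 12.1% to 23.3%. For these 2 genes the NCD and HFD ranges did not overlap in either genotype. In MlklAdi-KO mice the ranges of C1qa overlapped (28.6% to 32.3% on NCD, 15.8% to 33% on HFD). So did those of C5ar1 (1.8% to 2.12% and 1.52% to 2.39%), C1qb and C1qc. In tissue RNA, more cells of a type and more RNA per cell cannot be told apart. The part of macrophages in these changes was not tested further. Fibroblast markers (7 genes) also moved, from 261 to 382 FPKM on NCD to 688 to 811 FPKM on HFD in WT mice, and platelet markers (6 genes, of which 1 or 2 reached 1 FPKM) from 33.2 to 36.5 FPKM to 70.2 to 104 FPKM.

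Factor VII, the protease that binds tissue factor, had the largest change in visWAT of any member in MlklAdi-KO mice and came next after C3ar1 in WT mice. F7 was 0.439, 0.104, 0.357 and 0.299 FPKM in the visWAT of WT mice on NCD and 13.1, 18.6, 18.1, 19.1 and 14.7 FPKM on HFD (log2 difference 3.76, SE 0.13, adjusted p = 2.04e-07). In MlklAdi-KO mice it was 0.148, 0.403, 1.01 and 0.297 FPKM on NCD and 18.5, 16.4, 19.4, 9.50 and 5.93 FPKM on HFD (log2 difference 3.27, SE 0.33, adjusted p = 0.000265). All HFD mice lay above all NCD mice in both genotypes, and mice 156 and 157 were the lowest on HFD. Relative to the own liver, visWAT F7 moved from 0.161% to 0.988% on NCD to 19.0% to 27.2% on HFD in WT mice, and from 0.247% to 1.65% to 6.02% to 28.4% in MlklAdi-KO mice. With TPM, the WT ranges were 0.323% to 1.60% on NCD and 42.3% to 55.7% on HFD. In MlklAdi-KO mice they were 0.485% to 3.65% and 12.2% to 59.7%. As a percentage of the macrophage sum, F7 was 0.0505% to 0.148% on NCD and 0.684% to 1.0% on HFD in WT mice.

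Its neighbour F10, factor X, followed at a lower level, with 0.391, 0.188, 0.351 and 0.53 FPKM on NCD and 3.08, 3.05, 3.59, 4.03 and 2.63 FPKM on HFD in WT mice (log2 difference 1.64, SE 0.11, adjusted p = 4.14e-06). In MlklAdi-KO mice the log2 fold change of F10 was 1.66. In mouse 156 the hepatocyte markers were the highest, and the macrophage sum was 751 FPKM. F7 in this mouse was below 3 of the other 4 mice of its group. F10 was the highest of its group there (4.63 against at most 3.95 FPKM in the others). The part of hepatocyte RNA in F7 and F10 was not tested. Tissue factor (F3) did not pass the test, with 15.5 ± 2.93 FPKM (SD, n = 4) on NCD and 15.4 ± 1.68 FPKM (SD, n = 5) on HFD in WT mice. F13a1 rose in WT mice by 0.66, and F2, F5, F9, F11, F12, F13b and Klkb1 were at most 0.537 FPKM (F5, mouse 154) in the visWAT of every mouse other than 156 and 164.

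**Figure D3:**
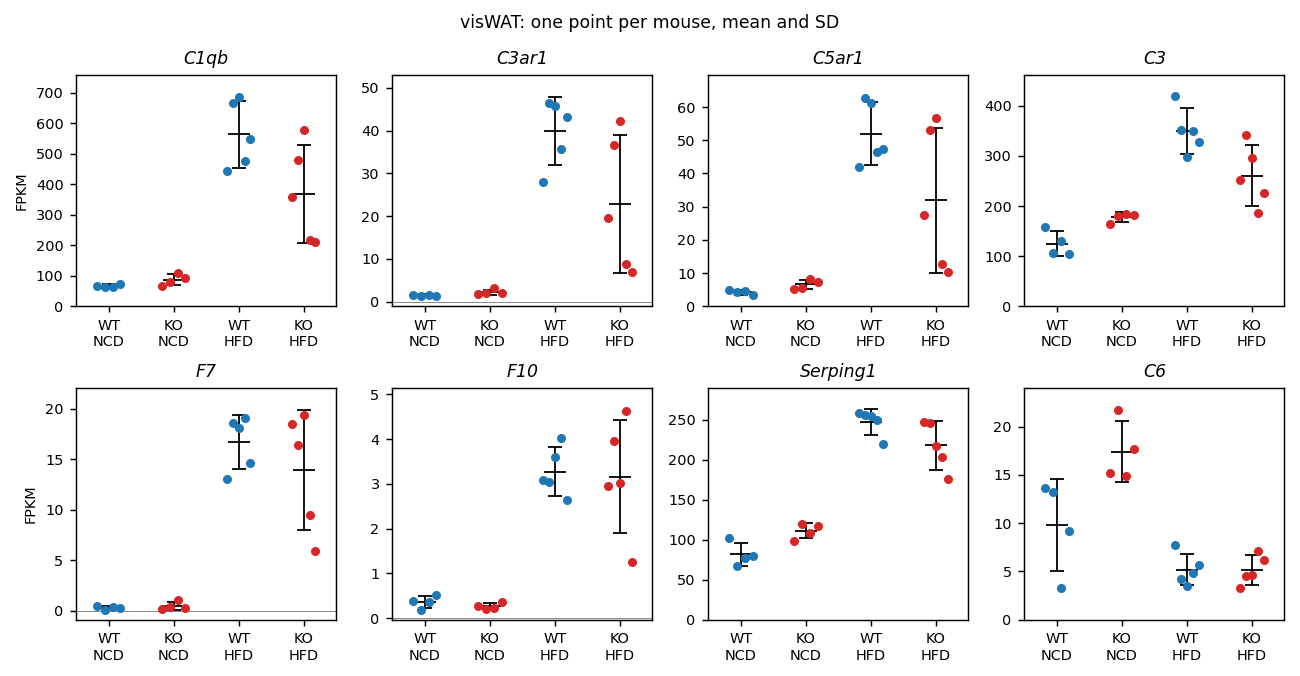
FPKM of 8 members in visWAT, 1 point per mouse, with the mean and SD of each group (4 mice on NCD, 5 on HFD, for WT and MlklAdi-KO). C1qb, C3ar1 and F7 are higher in every HFD mouse than in every NCD mouse of the same genotype, and MlklAdi-KO HFD mice 156 and 157 are the lowest HFD points for C3ar1 and F7.

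Components of the activation steps and the regulators changed less. C3 in visWAT went from 158, 106, 131 and 104 to 420.0, 352, 298, 349.8 and 328 FPKM in WT mice (log2 difference 1.49, SE 0.15, adjusted p = 7.02e-05) and from 163, 181, 184 and 183 to 253, 342, 295, 186 and 227 FPKM in MlklAdi-KO mice (log2 difference 0.52, SE 0.16, adjusted p = 0.0281). The groups were apart in both genotypes, although the lowest MlklAdi-KO mouse on HFD was close to the highest on NCD, and the MlklAdi-KO call was lost without the filter on low values (adjusted p = 0.0648), on the TPM scale (adjusted p = 0.0535) and when any NCD mouse or HFD mouse 151 or 153 was left out (adjusted p = 0.0522 to 0.0750). Serping1 rose by 1.60 in WT and 0.96 in MlklAdi-KO mice, properdin (Cfp), which stabilises the C3 convertase, by 1.24 and 0.71, and factor B (Cfb) by 0.54 and 0.32. C1ra, a protease of the C1 complex, rose in WT mice (0.82) and gave 0.06 (adjusted p = 0.725) in MlklAdi-KO mice. Protein S rose in both genotypes (1.20 and 0.56).

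Of the fibrinolysis genes, Plau and its receptor Plaur rose in both genotypes, by 1.59 and 1.22 in WT and by 0.94 and 1.04 in MlklAdi-KO mice. Plau measured 26.4, 21.0, 15.9 and 44.6 FPKM on NCD and 69.1, 86.6, 80.3, 62.6 and 95.4 FPKM on HFD in WT mice, with mouse 183 the highest on NCD. Tissue plasminogen activator (Plat) rose in WT mice (0.48) and gave −0.16 (adjusted p = 0.324) in MlklAdi-KO mice.

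C6, C2 and Tfpi, the inhibitor of tissue factor, were the 3 members that fell in MlklAdi-KO mice. C6 went from 15.2, 21.7, 14.9 and 17.7 FPKM on NCD to 3.29, 4.52, 4.63, 7.16 and 6.18 FPKM on HFD, with no overlap (log2 difference −1.60, SE 0.19, adjusted p = 0.000454). C2 changed by −1.0 (SE 0.23, adjusted p = 0.00769) and Tfpi by −0.56 (SE 0.08, adjusted p = 0.000813). In WT mice, C6 was 13.6, 13.2, 3.27 and 9.18 FPKM on NCD and 7.72, 4.26, 3.49, 4.86 and 5.62 FPKM on HFD, where the library labelled WT NCD, mouse 182, overlapped the HFD mice. The WT log2 values of C6 (−0.69, adjusted p = 0.156), C2 (−0.69, adjusted p = 0.0944) and Tfpi (−0.15, adjusted p = 0.608) did not pass. Without mice 182 and 183 they were −1.26, −1.16 and −0.50 (adjusted p = 0.00248, 0.00205 and 0.00663), and the WT count became 21 members, 17 higher and 4 lower, while that of all genes became 7295 of 14015. On all mice, C2 was called by edgeR (−0.94, adjusted p = 0.0331) and DESeq2 (−0.92, adjusted p = 0.00875) and C6 by DESeq2 (−0.95, adjusted p = 0.0246). On the TPM scale, where the median of all genes moved by 0.429 in this comparison, the WT value of Tfpi had the opposite sign (0.26, adjusted p = 0.557). In MlklAdi-KO mice the median moved by −0.0086. TPM divides by the sum of all FPKM, which was 564718 in the visWAT of WT NCD mouse 183 and 243503, 269807 and 309820 in mice 165, 180 and 182. Mouse 183 enters every comparison with visWAT of WT mice on NCD, and its part in the shifts was not tested.

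The third comparison asked how HFD changed the members in liver, where most of them are made. In WT mice 13 of 40 tested members were called, 7 higher and 6 lower, beside 25.3% of all genes (13.2% higher, 12.1% lower). In MlklAdi-KO mice 17 of 40 were called, 13 higher and 4 lower, beside 22.2% of all genes (11.9% higher, 10.3% lower). The changes were small, with medians of 0.07 and 0.15 over the members on the log2 scale, and none of the WT values and 1 of the MlklAdi-KO values reached a log2 change of 1. On the TPM scale the WT split was 10 higher and 5 lower.

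Fibrinogen and antithrombin fell in both genotypes. Fga in liver was 1681, 1699, 1382 and 1576 FPKM on NCD and 974, 976, 1311, 1067 and 917 FPKM on HFD in WT mice, with every HFD mouse below every NCD mouse (log2 difference −0.60, SE 0.11, adjusted p = 0.00505). In MlklAdi-KO mice it was 1822, 1644, 2017 and 1323 and 1172, 919.5, 1043, 1399 and 1224 FPKM, where NCD mouse 199 overlapped the HFD mice (log2 difference −0.56, SE 0.15, adjusted p = 0.0237). Fgb (−0.45 in WT, −0.42 in MlklAdi-KO) and Fgg (−0.45 and −0.42), whose promoters are shown above beside that of Fga, moved by similar amounts. The summed level of the 3 chains was 3588 to 4328 FPKM in WT mice on NCD and 2541 to 3464 FPKM on HFD. Serpinc1 was 283, 304, 279 and 298 FPKM on NCD and 239, 241, 253, 245 and 240.1 FPKM on HFD in WT mice (log2 difference −0.25, SE 0.05, adjusted p = 0.00490), and −0.24 in MlklAdi-KO mice. The MlklAdi-KO falls of Fga, Fgb, Fgg and Serpinc1 were lost when NCD mouse 166 or 197 was left out (11 members called, none lower) or when no filter on low values was used (10 called, none lower). In WT mice the inhibitor of plasmin, Serpinf2, fell by 0.36 and F10 fell by 0.16 on the log2 scale, and the call of F10 was lost on the TPM scale (adjusted p = 0.120).

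C9, which forms the pore of the terminal complex, rose most in both genotypes. It was 109.7, 143, 92.0 and 117 FPKM on NCD and 198, 228, 215, 199.9 and 186 FPKM on HFD in WT mice, without overlap (log2 difference 0.84, SE 0.12, adjusted p = 0.00102). In MlklAdi-KO mice it was 107, 121, 138 and 83.7 and 310.0, 194, 178, 227 and 248 FPKM, also without overlap, with mouse 151 the highest (log2 difference 1.03, SE 0.18, adjusted p = 0.00376). Of the other terminal components, 2 were called in MlklAdi-KO mice, C8a (0.69) and C6 (0.57), with 0.71 (adjusted p = 0.0615) and 0.38 (adjusted p = 0.463) in WT mice. The difference between the genotypes in these diet effects is given with the genotype comparisons.

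Among the coagulation factors, the protease F9 and the cofactor F5, which act ahead of thrombin, rose in both genotypes. F9 was 75.1, 74.0, 62.4 and 74.3 FPKM on NCD and 114, 108, 123, 114 and 104 FPKM on HFD in WT mice (log2 difference 0.65, SE 0.07, adjusted p = 0.000336), and 0.62 in MlklAdi-KO mice. F5 changed by 0.46 and 0.59, and no HFD mouse overlapped an NCD mouse for either gene. F13b rose by 0.26 and 0.30, Masp2 by 0.52 and 0.43, C2 by 0.35 and 0.56, and Pros1 by 0.25 and 0.36. In MlklAdi-KO mice the calls also held F11 (0.93), F3 (0.66), Serping1 (0.40) and Masp1 (0.34). F11, a factor of the contact pathway, was 25.8, 34.9, 29.3 and 17.8 FPKM on NCD and 60.6, 40.7, 37.0, 62.8 and 59.4 FPKM on HFD in these mice. The WT count rose to 20 members (12 higher, 8 lower) without the liver of mouse 182, which had the lowest C6 (26.9 FPKM), the lowest Serping1 and the highest macrophage marker sum (159.7 FPKM) of its group. The other 25 members, among them C3, Cfb, F2, F7, Plg, Mbl1, Mbl2, C1ra and the C1q chains, were not called in the liver of either genotype, and 4 in each genotype were too low to be tested.

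**Figure D4:**
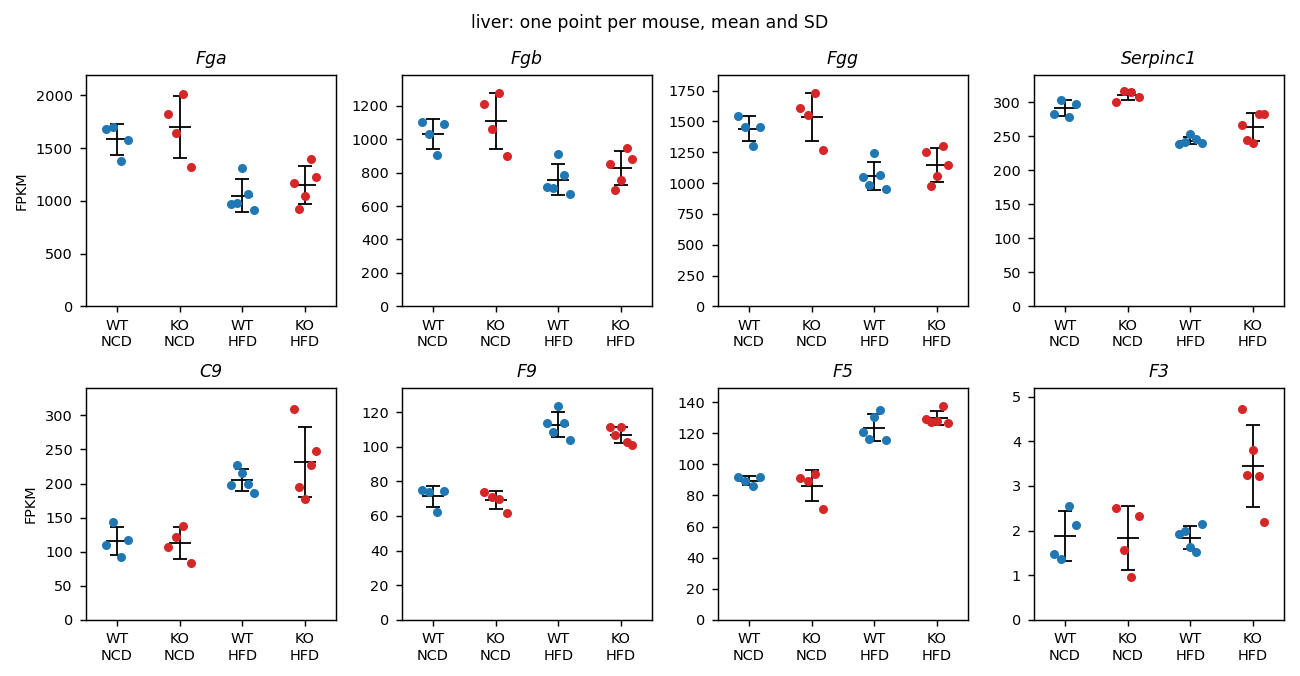
FPKM of 8 members in liver, 1 point per mouse, with the mean and SD of each group (4 mice on NCD, 5 on HFD, for WT and MlklAdi-KO). Fga, Fgb, Fgg and Serpinc1 are lower on HFD, C9, F9 and F5 are higher, and F3 is highest in MlklAdi-KO mice on HFD (2.20 to 4.72 FPKM).

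The diet effects in liver and visWAT were then compared directly, as the effect in liver minus the effect in visWAT. In WT mice 24 of 44 members were called, 6 higher and 18 lower, beside 40.0% of all genes (18.2% higher, 21.8% lower). In MlklAdi-KO mice 17 of 44 were called, 6 higher and 11 lower, which is near the background of 40.6% of all genes (19.4% higher, 21.2% lower). The MlklAdi-KO count was 27 (12 higher, 15 lower) without the visWAT of mice 156, 164 and 199, a set chosen after the data had been seen. On the TPM scale the WT split was 1 higher and 19 lower, with the median of all genes moved by −0.393.

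F7, the anaphylatoxin receptors and the C1q chains had the largest differences in WT mice, and F7 and C3ar1, followed by C6, in MlklAdi-KO mice. For F7 the liver values were 58.2, 64.5, 36.2 and 60.4 FPKM on NCD and 68.8, 68.4, 79.3, 78.2 and 68.9 FPKM on HFD in WT mice, beside 0.104 to 0.439 and 13.1 to 19.1 FPKM in visWAT, and the difference in diet effect was −3.33 (SE 0.21, adjusted p = 4.68e-09) in WT and −2.87 (SE 0.37, adjusted p = 2.76e-05) in MlklAdi-KO mice. C3ar1 gave −3.89 and −2.35, C5ar1 −3.05 and −1.55, and C1qb −2.83 and −1.83. F10 gave −1.81 and −1.70, with liver values of −0.16 and −0.04 beside 1.64 and 1.66 in visWAT. C3 differed in WT mice (log2 difference −1.59, SE 0.22, adjusted p = 2.40e-05), where its liver level was 1115, 1227, 1709.6 and 1221 FPKM on NCD and 1194, 1195, 1498, 1079 and 1137 FPKM on HFD. In MlklAdi-KO mice C3 gave −0.46 (adjusted p = 0.0689).

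In the other direction, C2 was called in both genotypes (1.03 in WT, 1.56 in MlklAdi-KO) and C6 in MlklAdi-KO mice (log2 difference 2.17, SE 0.27, adjusted p = 1.71e-05), with 1.07 (adjusted p = 0.118) in WT mice. F3 (0.97) was called in MlklAdi-KO mice. Calls of members near 0 in one tissue depended on the scale: for F9 in WT mice the difference was 0.38 as fitted, −0.87 with a pseudocount of 0.1 and −4.85 with edgeR on reads.

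**Figure D5:**
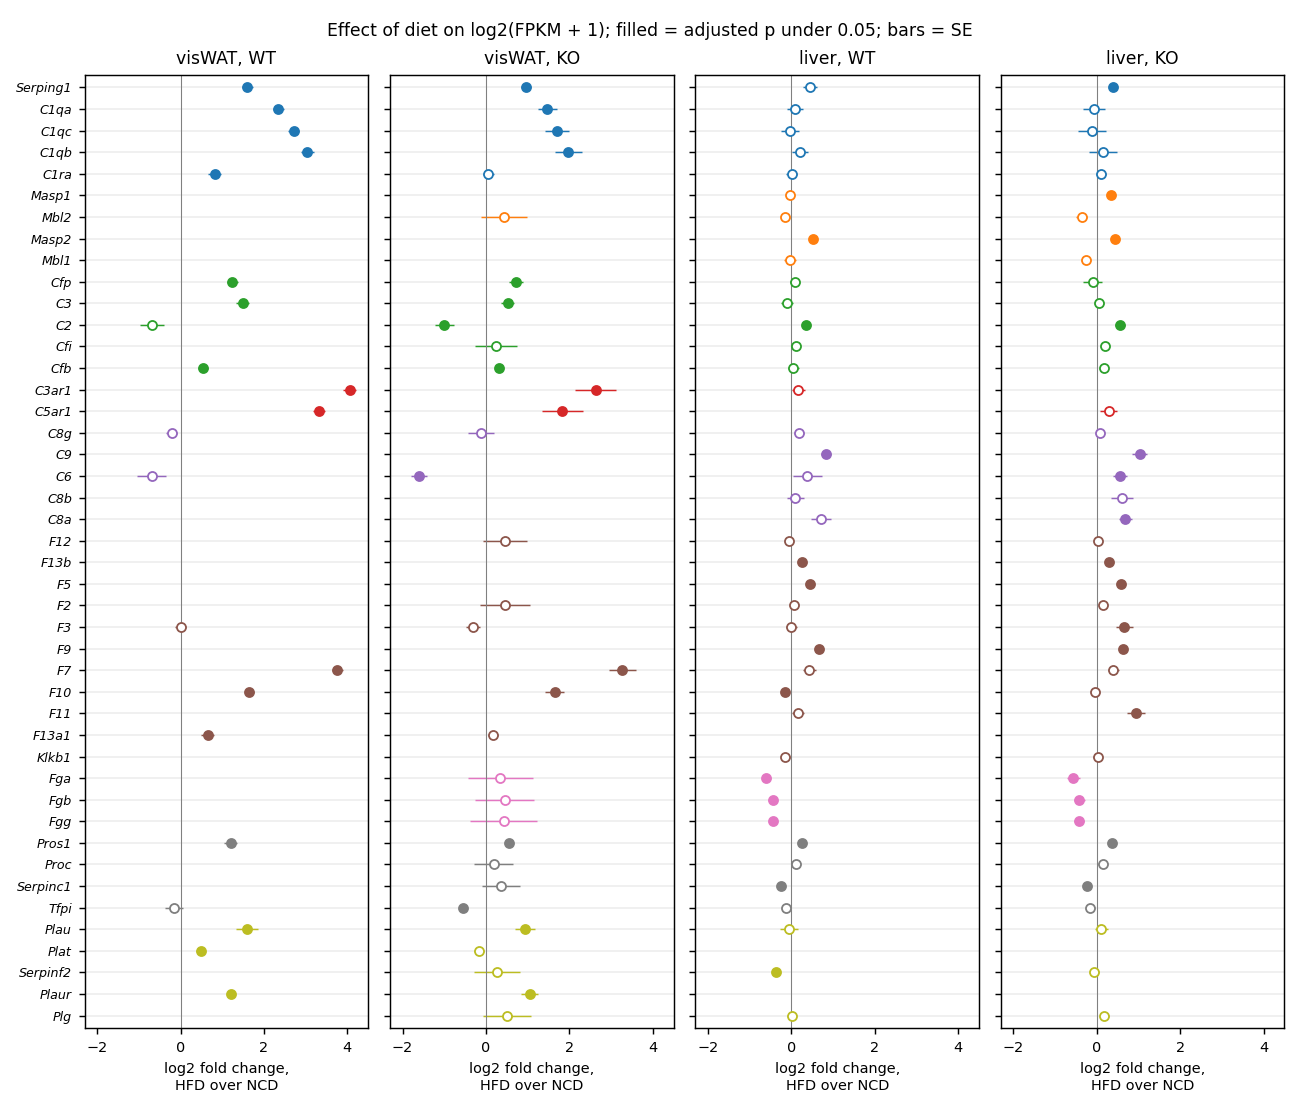
Log2 fold change of HFD over NCD on the log2(FPKM + 1) scale (x axis) for each of the 44 members (y axis, coloured by role), in visWAT and liver of WT and MlklAdi-KO mice (4 panels), with SE as bars, filled points for an adjusted p under 0.05 and no point where a member was too low to be tested. F7, C3ar1, C5ar1 and the C1q chains lie far to the right in both visWAT panels, F7 and the C1q chains lie close to 0 in the liver panels (C3ar1 and C5ar1 were each tested in the liver of 1 genotype), and C6 and C2 lie left of 0 in visWAT.

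The last comparisons set MlklAdi-KO against WT mice. Only MlklAdi-KO mice carried Cre, so the loss of Mlkl and the transgene itself cannot be told apart. By limma, no member was called between genotypes in visWAT on NCD (21 tested), visWAT on HFD (33), liver on NCD (39) or liver on HFD (41), beside 0%, 0.0215%, 0.00758% and 0.197% of all genes. At an unadjusted p under 0.05 there were 12, 8, 0 and 9 members, beside 3.75%, 21.5%, 4.35% and 12.6% of all genes. edgeR on reads called no member in any of the 4 comparisons, with 10, 4, 0 and 11 at an unadjusted p under 0.05, and DESeq2 called 0, 0, 0 and 3, with 12, 7, 0 and 12. Over all tested genes, edgeR called 0, 3, 1 and 27 and DESeq2 8, 161, 21 and 262 (of 14063, 13963, 13193 and 13215).

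On NCD the 12 members in visWAT all had higher means in MlklAdi-KO mice, namely C6, C3, C5ar1, F13a1, Serping1, C1ra, Cfp, Plat, C1qa, C1qc, C1qb and C3ar1, with log2 values from 0.36 to 0.90 and an adjusted p of 0.916 for each. C3 was 158, 106, 131 and 104 FPKM in WT and 163, 181, 184 and 183 FPKM in MlklAdi-KO mice, with every MlklAdi-KO mouse above every WT mouse. Of the 21 tested members, 7 had groups that did not overlap, all higher in MlklAdi-KO mice (C1qa, C3, C3ar1, C5ar1, C6, F13a1 and Plat), beside 2.46% of the tested genes in either direction and 1.87% higher. The same held for C9 and F9, which were too low to be tested, at most 0.101 FPKM in all 8 mice. For each of these 9 the exact two-sided permutation test gave p = 0.0286, the smallest that 4 against 4 mice can give. On the TPM scale the median of all genes moved by 0.343 in this comparison. Without mice 182 and 183, whose visWAT stood apart as described above, 6 members had an unadjusted p under 0.05. The macrophage marker sum was 205 to 307 FPKM in WT and 262 to 446 FPKM in MlklAdi-KO mice, and the fibroblast marker sum 261 to 382 and 347 to 405 FPKM, and their part in these values was not tested.

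On HFD the differences in visWAT had the opposite sign for the macrophage-typical members, again without a call. The 8 members at an unadjusted p under 0.05, of 33 tested, were near the background of 21.5% of all genes. C3ar1 was 27.9, 46.5, 45.8, 35.7 and 43.3 FPKM in WT and 19.6, 36.5, 42.3, 8.69 and 6.93 FPKM in MlklAdi-KO mice, a log2 value of −1.07 (SE 0.46, adjusted p = 0.224). Mice 152 and 153 lay within the WT range and mice 151, 156 and 157 below it. C1qb gave −0.70, C1qc −0.64, Plau −0.51, C1qa −0.47, C3 −0.44, C1ra −0.30 and Pros1 −0.25, all with an unadjusted p under 0.05 and adjusted p from 0.221 to 0.228. No member had groups without overlap, beside 3.01% of the tested genes, and the smallest exact permutation p was 0.0159. Without mouse 156 or 157 the number at an unadjusted p under 0.05 was 2, and without both mouse 156 and WT mouse 164 it was 0.

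The interaction of genotype with diet in visWAT, fitted over all 18 mice, called none of 28 members by limma, edgeR or DESeq2. Of all 14136 tested genes limma called 0%, edgeR 0 and DESeq2 21. At an unadjusted p under 0.05 there were 13 members by limma and 12 by each of the others, beside 13.2% of all genes, all with a lower log2 effect of HFD in MlklAdi-KO than in WT mice. The largest were C5ar1 (log2 difference −1.49, SE 0.54, adjusted p = 0.341), C3ar1 (−1.43), C1qb (−1.06) and C1qc (−1.0). On the TPM scale the median of all genes moved by −0.439 here. Leaving out visWAT WT NCD mouse 165 gave 2 called members.

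In the liver on NCD, no member had an unadjusted p under 0.05 or groups without overlap, beside 2.80% of the tested genes for the latter. On HFD, the groups did not overlap for tissue factor (F3). F3 was 1.92, 1.98, 1.64, 1.51 and 2.14 FPKM in WT and 4.72, 3.26, 3.81, 3.23 and 2.20 FPKM in MlklAdi-KO mice, so that each MlklAdi-KO mouse was above each WT mouse. It was the only member of the 44 without overlap, a share near the 2.62% of all tested genes. The ratio of its means was 1.87-fold, with an exact two-sided permutation p = 0.00794, the smallest possible with 5 against 5 mice. With limma the log2 value was 0.62 (SE 0.14, adjusted p = 0.112). DESeq2 called it (adjusted p = 0.00154), as did limma without mouse 157 (adjusted p = 0.0387), which had the lowest F3 of the MlklAdi-KO mice. F11 (0.53), C2 (0.31), Klkb1 (0.30), C1ra (0.26), Serpinf2 (0.25), Masp1 (0.24), Plg (0.22) and Serping1 (0.17) had an unadjusted p under 0.05. DESeq2 called Masp1 and Klkb1 among these. Masp1 lies on chromosome 16 with a gap of 291388 bases to the adipocyte gene Adipoq, and the part of this position was not tested. The interaction of genotype with diet in liver called none of 41 members by limma, beside 0.0151% of all genes, with 4 at an unadjusted p under 0.05 (F11, F3, Masp1 and Serpinf2) beside 6.12%, and DESeq2 called 1, beside 63 of the 13248 tested genes.

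The remaining 62 genes of the complement and coagulation pathways were described from a second list. In visWAT of WT mice, 13 of 19 tested complement genes and 9 of 19 tested coagulation genes were called for diet, 12 and 7 of them higher, and in MlklAdi-KO mice 10 of 19 (8 higher) and 7 of 21 (5 higher). Beside the 37.8% and 43.7% of all tested genes called, the coagulation genes were near the background. The subunits of the complement receptor integrins rose most, with Itgax at 4.67 and 3.63 and Itgb2 at 3.62 and 2.71 in WT and MlklAdi-KO mice. Itgax is also on the macrophage marker list. Itgam rose by 2.01 in WT mice, and Tfpi2, a relative of Tfpi, by 1.63 in MlklAdi-KO mice. Thrombomodulin of the vessel wall (Thbd) fell, with log2 values of −1.49 and −2.08, as did von Willebrand factor (Vwf, −0.64) in WT and C7 (−1.27) in MlklAdi-KO mice.

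Complement factor D (Cfd, adipsin), the protease that activates factor B and a product of adipocytes, was the member of this second list with the widest range. In visWAT it was 12032, 14086, 3486 and 8360.4 FPKM in WT mice on NCD and 438, 204, 381, 589.9 and 331 FPKM on HFD (log2 difference −4.51, SE 0.44, adjusted p = 4.53e-05), with no overlap. In MlklAdi-KO mice it was 12010.2, 10664, 10783 and 12955 FPKM on NCD and 1907, 354, 308, 3853 and 2799 FPKM on HFD (log2 difference −3.30, SE 0.76, adjusted p = 0.00762), where mice 151, 156 and 157 were above and mice 152 and 153 within the WT HFD range. Summed mature adipocyte markers in visWAT were 8488, 8713 and 9326 FPKM in mice 151, 156 and 157, 5716 and 5360 FPKM in mice 152 and 153, and 4834 to 5836 FPKM in WT mice on HFD, and their part in these values was not tested. In liver Cfd rose by 3.05 in WT and 2.65 in MlklAdi-KO mice, from 0.105 to 3.91 to 5.57 to 57.5 FPKM in WT mice. Liver minus visWAT was −11.67 on NCD and −4.11 on HFD in WT mice. The mature adipocyte markers in liver, 8 genes of which 4 to 6 reached 1 FPKM, also moved, from 47.7 to 67.7 FPKM in WT mice on NCD to 113 to 156 FPKM on HFD, and their part in the liver value of Cfd was not tested.

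In liver, 11 of 24 tested complement genes and 4 of 23 coagulation genes of the second list were called for diet in WT mice (10 and 1 higher), and 12 of 24 (11 higher) and 6 of 22 (4 higher) in MlklAdi-KO mice. All tested genes gave 25.3% and 22.2%, so the coagulation genes were again near the background. C4a rose by 2.71 and 2.21, and C4b, whose sequence is close to that of C4a, by 0.63 and 0.62. Serpine2, an inhibitor of thrombin, rose in MlklAdi-KO mice (0.90). Tfpi2 (−0.61 and −0.94) and S100a10 (−0.44 and −0.95), which helps to hold plasminogen on cells, fell in both genotypes, as did Cd55 (−0.32 and −0.39), and Thbd fell in WT mice (−0.59).

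Kininogen, the precursor of bradykinin and the carrier of factor XI and prekallikrein, gave the only genotype calls among these 62 genes (2 of 22 tested coagulation genes and 0 of 25 tested complement genes in the liver on HFD). Kng1 in the liver on HFD was 679, 607, 746, 685 and 675 FPKM in WT and 1286, 1182, 1159.9, 1534 and 1366 FPKM in MlklAdi-KO mice, without overlap (log2 difference 0.94, SE 0.09, adjusted p = 0.00193), and Kng2 gave 0.67 (SE 0.08, adjusted p = 0.0121). On NCD, Kng1 was 787, 794, 1317 and 735 FPKM in WT and 1451, 1619, 1509 and 1420.3 FPKM in MlklAdi-KO mice, again without overlap. The highest WT value on NCD came from the library labelled WT NCD, mouse 182, which in visWAT also had Mlkl within the MlklAdi-KO range. Kng1 and Kng2 are closely related copies, so reads may be shared between them. The liver was not targeted, and the loss of Mlkl in adipocytes cannot be told apart from the Cre transgene here either.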

How the data were processed

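RNA sequencing was done on poly(A) RNA from visWAT (extracted with TRIzol per the labels and QIAzol per the methods) and liver (extracted with a column kit) of 18 mice, 1 library per mouse and tissue. Per the methods, the authors trimmed reads with fastp, aligned them to mm39 (GRCm39) with HISAT2, counted them per gene with featureCounts 1.5.0-p3 and deposited gene counts as FPKM in 1 table. Strand setting and annotation release were not given in the sources used here. The FPKM were scaled by the authors with a library size that was 0.737 to 0.812 times the reads of a library in liver and 1.01 to 1.40 times in visWAT, which lowers visWAT against liver. Whole reads were recovered from 100% of values (tolerance 0.01 reads), with 20875463 to 25530574 reads in liver and 21580696 to 30322171 in visWAT. The authors' fold changes and p-values in other tables (from DESeq2 or edgeR) and 72 further columns of values were not used.

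Groups were taken from the sample labels. Members and lists were chosen with earlier results of these data known. Each comparison was fitted with limma 3.58.1 (R 4.3.3) on log2(FPKM + 1) with a mean-variance trend, in the groups compared only, over all genes with a mean of at least 0.5 FPKM in them. Benjamini-Hochberg adjustment ran over all these genes, and an adjusted p under 0.05 is a call. Single values were compared with exact two-sided permutation tests. The scripts were tested on simulated data. Liver and visWAT of a mouse share the mouse number, as the labels give it, so these libraries are paired. Over 11489 genes, their deviations from the group means correlated by −0.0659 to 0.237 (median 0.0462, 3 of 18 mice over 0.1). Nothing in the labels gives a batch. Replicate libraries differed by more than sampling noise.

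Named are every member with a call, and the 12 largest where more passed, the following members regardless of a call (C1qa, C1qb, C1qc, C1ra, Mbl1, Mbl2, C2, C3, Cfb, Cfp, C3ar1, C5ar1, C6, C9, F2, F3, F5, F10, F11, F13a1, Fga, Fgb, Fgg, Serpinc1, Pros1, Tfpi, Plg, Plat, Plau, Plaur and Serping1), the 3 largest rises and falls with a call on the second list, Cfd and Mlkl. Other names and values, such as C8b between tissues, F9 in the comparison of diet effects, and the lists of members by percentage of liver, were chosen after their values were seen. Alternatives were a pseudocount of 0.1, no filter or a mean of at least 1 FPKM, TPM, edgeR 4.0.16 and DESeq2 1.42.0 on the recovered reads, a log2 fold change of at least 1, each mouse left out, mice 182 and 183 left out, all groups in 1 fit and a block for the mouse. Leaving out the visWAT of mice 156, 164 and 199 was added after the data had been seen.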

Additional observations from a re-analysis of the deposited data

Results flagged for a closer look

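In groups of 4 or 5 mice, the highest or lowest value of a member lay further from the others than Dixon's 95% limit in 38 of 248 sets (15.3%). Chance gives such a value in about 1 in 20 sets. Of these, 21 came from the visWAT of mice 164 and 156, in liver-restricted members but for 1.

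In the visWAT of MlklAdi-KO HFD mouse 156, the highest values were Fga 13.1, Fgb 10.6, Fgg 14.4, F2 7.08, Plg 6.50, Mbl2 5.82, Serpinc1 3.96, C9 2.80, Mbl1 1.51 and F11 0.409 FPKM. In the visWAT of WT HFD mouse 164 they were Fga 1.57, Fgb 1.64, Fgg 2.15, F2 0.979, Plg 0.585, Mbl2 0.850, Serpinc1 0.762, C9 0.287, Mbl1 0.569 and F11 0.128 FPKM, and Serping1 was the lowest of the group at 219 FPKM. MlklAdi-KO NCD mouse 199 was highest in visWAT for Plg (0.353 FPKM) and Mbl1 (0.220 FPKM). Hepatocyte marker sums were highest in the same 3 libraries of their groups, and their part was not tested.

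Other visWAT values that stood apart were the lowest C3 of MlklAdi-KO NCD mouse 166 (163 FPKM), the Plat of MlklAdi-KO NCD mouse 179 (5.55 FPKM) and the lowest Cfb of MlklAdi-KO HFD mouse 151 (1.01 FPKM).

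In liver, the library labelled WT NCD, mouse 182, had the lowest C6 (26.9 FPKM) and Serping1 (208 FPKM) and the highest C5ar1 (0.826 FPKM) and Plat (1.21 FPKM). MlklAdi-KO HFD mouse 152 was highest for C1qa (60.4 FPKM), C1qb (67.8 FPKM) and C5ar1 (1.64 FPKM). WT HFD mouse 161 was highest for C3 (1498 FPKM) and Serping1 (484 FPKM). The others were F5 of MlklAdi-KO HFD mouse 156 (138 FPKM), Mbl2 of WT NCD mouse 165 (lowest, 327 FPKM) and Plat of MlklAdi-KO NCD mouse 166 (0.230 FPKM). Macrophage marker sums were 159.7 FPKM in the liver of mouse 182 and 136 FPKM in that of mouse 152, the highest of their groups, and their part was not tested.

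The effect of HFD differed between liver and visWAT by the test of the difference (liver minus visWAT, log2). In WT mice the 12 largest were C3ar1 (−3.89), F7 (−3.33), C5ar1 (−3.05), C1qb (−2.83), C1qc (−2.75), C1qa (−2.25), F10 (−1.81), Plau (−1.65), C3 (−1.59), Plaur (−1.21), Cfp (−1.17) and Serping1 (−1.16). In MlklAdi-KO mice they were F7 (−2.87), C3ar1 (−2.35), C6 (2.17), C1qb (−1.83), C1qc (−1.83), F10 (−1.70), C2 (1.56), C5ar1 (−1.55), C1qa (−1.54), Plaur (−0.98), F3 (0.97) and Plau (−0.84).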

How the results depend on the processing

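Of 8118 alternative values of 428 named results, 7833 kept their direction and side of the threshold, 244 lost it, 23 gained it and 18 turned. Counts of called members moved by more than 1.5 times as follows. DESeq2 called 25 members between tissues in MlklAdi-KO mice on HFD (adjusted p missing for 18 of 44), 3 between genotypes in liver on HFD and 1 for genotype by diet in liver. With a log2 fold change of at least 1, the counts were 9 (diet, visWAT, MlklAdi-KO), 0 and 1 (diet, liver, WT and MlklAdi-KO), and 13 and 9 (liver minus visWAT diet effect, WT and MlklAdi-KO). Without a filter, 10 were called for diet in MlklAdi-KO liver, and without the visWAT of mice 156, 164 and 199, 27 for the difference in diet effect in MlklAdi-KO mice. Leaving out each mouse gave 17 to 20 (WT) and 16 to 18 (MlklAdi-KO) for diet in visWAT, 11 to 20 and 11 to 14 in liver, 43 to 44 between tissues on NCD, 22 to 29 and 14 to 25 for the difference in diet effect, 0 to 2 for genotype by diet in visWAT (2 without mouse 165) and 0 to 1 between genotypes in liver on HFD (F3, without mouse 157). The highest counts came without mouse 182 (liver, WT, 20) and mouse 156 (MlklAdi-KO, 25).

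On TPM the tissue difference turned for Serping1 (−0.29) and C2 (−0.37) in WT mice on HFD, Pros1 (−0.81) in MlklAdi-KO mice on NCD, and C2 (−0.29) and Pros1 (−1.04) in MlklAdi-KO mice on HFD, and the difference in diet effect turned for F9 in WT mice (−0.19). Differences in diet effect of members near 0 in 1 tissue turned with other scales, namely F9 (−0.87) and Masp2 (−0.10) with a pseudocount of 0.1, C9 (−2.08 with edgeR, −2.50 with DESeq2), Masp2 (−0.42 and −0.45), F9 (−4.85 and −5.25) and F13a1 (1.65 and 1.68) in WT mice, and F11 (−1.32 and −1.58) in MlklAdi-KO mice. These scales weigh values near 0 differently by construction.

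With the mouse as a replicate block, the tissue counts stayed at 43 and 44 (WT on NCD and HFD) and 44 and 43 (MlklAdi-KO). The difference in diet effect gave 25 called members in WT (8 higher, 17 lower, 23 shared with the fit without the block) and 17 in MlklAdi-KO mice, and of the named genes Fga in WT mice lost its call (−0.78). Libraries of 4 or 5 mice per group, and members under 0.5 FPKM, limit what could be detected.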
